A study of Mus musculus with 8 samples.

Results

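The genes described are 10 mouse histone variant and histone chaperone genes, taken as a list of symbols and found by their Ensembl identifiers. They are H1foo, H2afz, H3f3a, H3f3b, Hira, Asf1a, Chaf1a, Chaf1b, Npm2 and Nasp, and all 10 were found among the 21553 genes with values. Polyadenylated RNA was sequenced from whole embryos of B6CBA F1 crosses that had received mRNA by microinjection at the 1-cell stage. Embryos were given Snrpb with Snrpd2 mRNA, Snrpb mRNA alone, Snrpd2 mRNA alone, or mRNA for the fluorescent protein mCherry as the control, and were collected at the 2-cell stage (24 h after injection) or at the 1-cell stage (5 h). Snrpb and Snrpd2 encode Sm proteins of the spliceosome. Each of the 8 conditions was 1 library of 40 pooled embryos from 3 experiments, so no condition had a replicate and the spread between embryos is not seen. All groups were injected, and there was no uninjected group.

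Histone variants are non-allelic histones that replace the standard ones at particular sites or times, and histone chaperones carry histones to and from DNA. Around fertilisation the sperm genome exchanges protamines for maternal histones, H3.3 is placed on the male pronucleus by the HIRA complex independently of replication, and the CAF-1 complex later places H3.1 at replication forks. The oocyte supplies its own linker histone, H1FOO, and its own nucleoplasmin, NPM2, from mRNA stored before ovulation. Unlike the clustered histone genes that are expressed with replication, variant genes such as H2afz and H3f3b make polyadenylated mRNA, which this kind of library captures.

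The libraries held between 39492734 and 59979046 counted reads, and each member had between 71 and 95814 reads per library. Markers of the oocyte and early embryo had reads in all 8 libraries, and their summed level was 5484 to 6465 cRPKM at the 2-cell stage and 6381 to 6970 cRPKM at the 1-cell stage (cRPKM is the deposited value, reads scaled by gene length and library size). The 7 markers of the 2-cell stage that were found summed to 1836 to 3453 cRPKM in 2-cell libraries and 9.98 to 114 cRPKM in 1-cell libraries. Most of the 2-cell sum came from Gm2016, which had 1627 to 3225 cRPKM on 66 to 144 reads there, and without it the other 6 summed to 208 to 231 cRPKM at the 2-cell stage and 9.98 to 13.5 cRPKM at the 1-cell stage. The 20 cumulus and granulosa markers, which stand for cells that surround the egg, summed to 33.7 to 52.2 cRPKM at the 2-cell stage and 55.8 to 88.02 cRPKM at the 1-cell stage, and 3 rose and 6 fell of the 18 tested. Of the 20, Slc38a3 and Pgr were at 0 reads in all 4 1-cell libraries and Inha in 1 of the 2-cell libraries. Amh was at 0 reads in the 1-cell libraries given Snrpb with Snrpd2 and given Snrpd2 alone. The highest 2-cell sum, 52.2 cRPKM, was that of the library given Snrpd2 alone. There Hsd3b1 had 6.99 cRPKM and Cyp11a1 3.84 cRPKM, against 0.08 to 0.17 and 0.18 to 0.26 cRPKM in the other 2-cell libraries. Fshr was lowest there, at 0.01 cRPKM. At the 1-cell stage most of the summed level of these 20 markers came from Bmpr1b (32.9 to 44.1 cRPKM) and Cyp19a1 (15.5 to 19.7 cRPKM). The part of cells that surround the egg in the stage differences was not tested. The injected mRNAs were in excess where the labels name them, with Snrpb at 11913 cRPKM or more and Snrpd2 at 9142 cRPKM or more in 1-cell libraries given them. The mean correlation of a library with the other 3 of its stage, across genes, lay between 0.984 and 0.991, and no library stood clearly apart by it.

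Promoter sequence is shown for the 3 histone variant genes whose levels set them apart in these data, H1foo, H2afz and H3f3b, and for H3f3a, which encodes the same H3.3 protein as H3f3b. Each line holds the 250 bases before the RefSeq start of the gene in build GRCm38.p6, written 5′ to 3′ on the gene's strand, and the deposited files use mm9, so these positions belong to the RefSeq table alone. The windows are chr6:115944681-115944930, plus strand for H1foo, chr3:137864237-137864486, plus strand for H2afz, chr1:180813606-180813855, minus strand for H3f3a and chr11:116024505-116024754, minus strand for H3f3b. Capitals mark every match, on either strand, to 5 motifs, with overlapping matches run together. The motifs were the E-box (CANNTG), the CCAAT box (spelled CCAAT), the GC box (GGGCGG), the TATA box (TATAAA) and the motif TAATCC.
H1foo: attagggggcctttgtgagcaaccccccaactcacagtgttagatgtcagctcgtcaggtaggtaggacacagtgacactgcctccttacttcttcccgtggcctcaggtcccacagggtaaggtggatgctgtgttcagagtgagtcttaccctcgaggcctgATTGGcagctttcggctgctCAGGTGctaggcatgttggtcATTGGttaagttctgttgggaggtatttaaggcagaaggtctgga
H2afz: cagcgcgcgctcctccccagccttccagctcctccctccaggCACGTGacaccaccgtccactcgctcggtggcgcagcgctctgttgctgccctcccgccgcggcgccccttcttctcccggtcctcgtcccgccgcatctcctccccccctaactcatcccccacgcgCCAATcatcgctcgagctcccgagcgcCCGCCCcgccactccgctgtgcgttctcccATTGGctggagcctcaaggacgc
H3f3a: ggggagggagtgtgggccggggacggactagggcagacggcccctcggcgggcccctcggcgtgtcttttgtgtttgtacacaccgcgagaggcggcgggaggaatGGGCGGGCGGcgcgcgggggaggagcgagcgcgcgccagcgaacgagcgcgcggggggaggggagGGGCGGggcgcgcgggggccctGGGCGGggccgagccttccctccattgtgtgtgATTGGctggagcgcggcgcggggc
H3f3b: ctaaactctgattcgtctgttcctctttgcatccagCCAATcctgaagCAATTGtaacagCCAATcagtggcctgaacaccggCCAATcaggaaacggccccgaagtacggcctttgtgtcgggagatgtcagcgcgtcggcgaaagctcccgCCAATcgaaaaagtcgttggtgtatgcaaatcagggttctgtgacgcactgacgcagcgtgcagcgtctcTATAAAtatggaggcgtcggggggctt

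The window of H3f3b held 4 CCAAT matches and a TATA box match that begins 27 bases before the start, with 1 E-box, whereas the H3f3a window held 1 CCAAT match, 4 GC box matches and no TATA box. H1foo had 2 CCAAT matches and 1 E-box and no GC box, with 4 CpG dinucleotides, below the median of 6 over 32851 windows of the same length. H2afz had 28 CpG, H3f3a 35 and H3f3b 19. Of the 9 members with a window (all but Npm2), 6 held an E-box, 7 a CCAAT box, 5 a GC box, 1 a TATA box and 0 the TAATCC motif. Over all windows the shares were 66.2% for the E-box, 33.8% for the CCAAT box, 32.7% for the GC box, 12.4% for the TATA box and 6.25% for the TAATCC motif. These are matches of letters and describe the windows only.

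The levels of the 10 genes differed widely. At the 2-cell stage H3f3b averaged 845 ± 50.2 cRPKM (SD, n = 4 libraries), rank 49 of 21553 genes, and H3f3a averaged 1.40 ± 0.406 cRPKM, rank 10807. At the 1-cell stage H1foo was the highest member at 627 ± 256 cRPKM, rank 63, and H3f3a the lowest at 2.06 ± 0.428 cRPKM. In order of their 2-cell means the members were H3f3b, H2afz (226 ± 33.5), Npm2 (149 ± 16.7), Asf1a (137 ± 11.2), H1foo (129 ± 21.2), Chaf1a (35.4 ± 3.13), Nasp (23.3 ± 2.60), Chaf1b (12.4 ± 2.84), Hira (1.70 ± 0.392) and H3f3a. The neighbours Npm2, Asf1a and H1foo lay within their spread of each other, as did Hira and H3f3a. At the 1-cell stage the order was H1foo, H3f3b (345 ± 18.9), Npm2 (247 ± 41.5), Asf1a (216 ± 6.48), Nasp (64.1 ± 9.44), Chaf1a (60.2 ± 8.51), H2afz (29.2 ± 5.08), Chaf1b (5.28 ± 0.882), Hira (2.51 ± 0.535) and H3f3a. There H1foo and H3f3b overlapped, since H1foo with mCherry was at 338 cRPKM, and Npm2 and Asf1a, Nasp and Chaf1a, and Hira and H3f3a could not be separated by their spread.

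**Figure D1:**
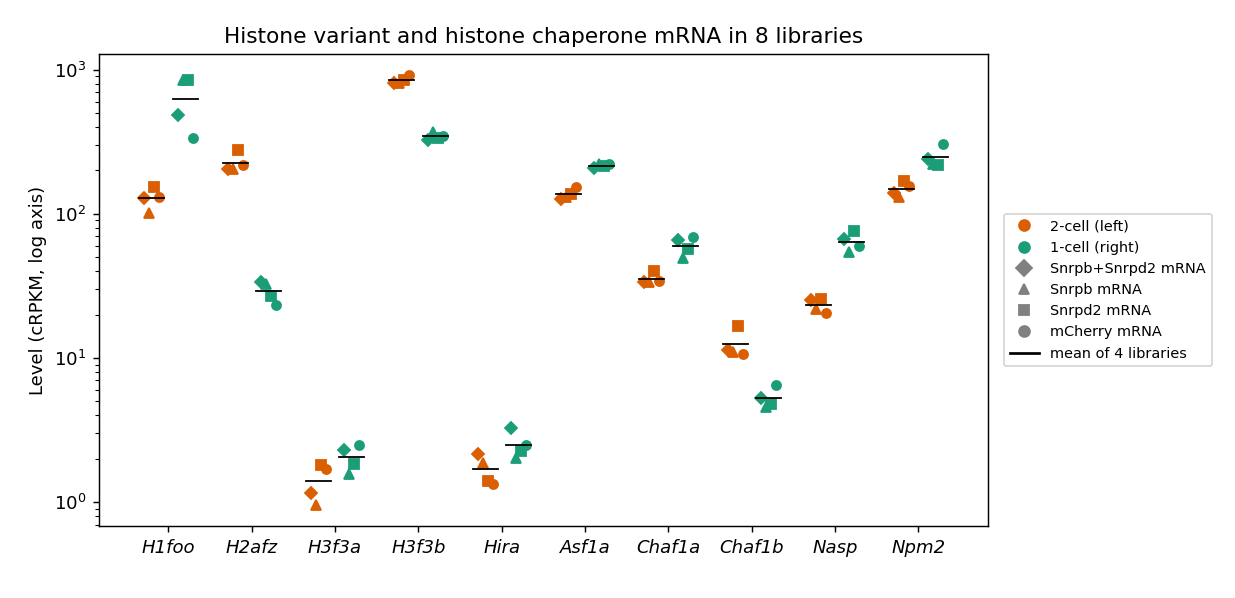
Level of each gene in the 8 libraries, in cRPKM on a log axis, with 2-cell libraries left of 1-cell libraries, symbols for the injected mRNA and a black line at the mean of the 4 libraries of a stage. The stages are fully separated for 8 of the 10 genes (67.7% of all genes tested) and overlap for H3f3a and Hira, and the 1-cell libraries of H1foo range from 338 to 844 cRPKM.

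The first comparison was between stages, with the 4 injections standing in for replicates of the 2-cell against 1-cell difference. Of the 10 genes, 3 were higher and 7 lower at the 2-cell stage (edgeR quasi-likelihood test, adjusted p under 0.05). Over all 16264 genes tested the same test called 38.1% higher and 32.0% lower, so a call as such is common in this comparison. The median log2 change was −0.87 over the 10 genes and 0.15 over all genes tested. Every member moved the same way in all 4 injections, and cRPKM values of the stages did not overlap for 8 of the 10. Over all 16264 genes tested, 67.7% did not overlap between the stages, so such separation is common too. A level here is a share of polyadenylated reads, so changes in an mRNA's amount, its polyadenylation and total mRNA cannot be told apart. For cells that surround the egg, fewer cells and less RNA per cell cannot be told apart either. Embryos numbered 40 per library at both stages, with 1 cell each at the 1-cell stage and 2 at the 2-cell stage.

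Among the core variants, H2afz, which encodes the H2A.Z histone found at promoters, had the largest rise of the 10. Its level was 204, 205, 275 and 219 cRPKM in 2-cell embryos given Snrpb with Snrpd2, Snrpb, Snrpd2 and mCherry, against 33.9, 32.9, 26.9 and 23.2 cRPKM in the 1-cell embryos of the same injections. All 2-cell libraries were above all 1-cell libraries by a wide margin. The rise was 6.49-fold (log2 2.70, SE 0.16, adjusted p = 2.37e-07), and its rank moved to 266 at the 2-cell stage, against 2622 at the 1-cell stage.

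H3f3b, a gene for the replication-independent histone H3.3, had 809.7, 806, 851 and 914 cRPKM at the 2-cell stage in the order Snrpb with Snrpd2, Snrpb, Snrpd2 and mCherry, against 327, 369, 333 and 349 cRPKM at the 1-cell stage. The libraries of a stage lay close together and the stages were apart. The rise was 2.05-fold (log2 1.03, SE 0.11, adjusted p = 1.58e-05). H3f3a, the other H3.3 gene, had 1.16, 0.96, 1.80 and 1.69 cRPKM at the 2-cell stage, against 2.31, 1.57, 1.85 and 2.51 cRPKM at the 1-cell stage. These ranges overlapped. H3f3a fell by 0.83 on the log2 scale (SE 0.24, adjusted p = 0.00991) on 71 to 256 reads per library. The call did not hold with library totals in place of TMM scaling (−0.57, adjusted p = 0.0608), without the 2-cell library given both Sm mRNAs (−0.72, adjusted p = 0.0521) or without the 1-cell library given both (−0.75, adjusted p = 0.0541).

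H3f3a made up 0.119% to 0.211% of the summed H3.3 level at the 2-cell stage and 0.423% to 0.713% at the 1-cell stage, so nearly all H3.3 reads were assigned to H3f3b. GENCODE names 2 pseudogenes after H3f3a and an antisense gene on the opposite strand. How reads that map to several genes were treated, and whether strand was used, is not given in the sources used here, so the low count of H3f3a is uncertain.

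H1foo, the oocyte linker histone gene, fell furthest of the 10. It had 129, 102, 154 and 131 cRPKM in 2-cell embryos given Snrpb with Snrpd2, Snrpb, Snrpd2 and mCherry, against 485, 842, 844 and 338 cRPKM in the 1-cell embryos. The 2-cell values lay close together, while the 1-cell values fell into a lower pair (both Sm mRNAs, and mCherry) and a higher pair (the single Sm mRNAs). The fall was 5.47-fold (log2 −2.45, SE 0.25, adjusted p = 1.19e-05). Within injections the 2-cell level was 0.224 times the 1-cell level (95% interval 0.218 to 0.231) with both Sm mRNAs, 0.0942 times (0.0913 to 0.0971) with Snrpb, 0.14 times (0.137 to 0.144) with Snrpd2 and 0.323 times (0.314 to 0.333) with mCherry. These intervals are exact binomial ones for the ratio of 2 libraries and cover counting error only. The 2-cell values spanned 102 to 154 cRPKM and the 1-cell values 338 to 844 cRPKM.

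Npm2 encodes the oocyte nucleoplasmin, which helps unpack sperm chromatin. Its level was 139.6, 131, 168 and 157 cRPKM at the 2-cell stage, against 242, 220.1, 218 and 307 cRPKM at the 1-cell stage, each in the order Snrpb with Snrpd2, Snrpb, Snrpd2 and mCherry. The stages did not overlap. The fall was 1.97-fold (log2 −0.98, SE 0.12, adjusted p = 3.49e-05), and Npm2 had rank 444 at the 2-cell stage and 263 at the 1-cell stage. In GENCODE Npm2 overlaps Xpo7 on the same strand, and their reads may share sequence.

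Nasp and Asf1a, which encode H3-H4 chaperones, both fell, whereas Asf1b, which has the same role, did not pass (edgeR, log2 −0.02, adjusted p = 0.942). Asf1b was lower at the 2-cell stage in 2 of 4 injections, Snrpb (163 against 182 cRPKM) and Snrpd2 (175 against 208 cRPKM). It was higher with both Sm mRNAs (182 against 139 cRPKM) and with mCherry (235 against 117 cRPKM). Nasp, which binds and protects free H3-H4, had 25.4, 21.7, 25.6 and 20.4 cRPKM at the 2-cell stage, against 66.8, 54.3, 76.0 and 59.5 cRPKM at the 1-cell stage. The fall was 3.29-fold (log2 −1.72, SE 0.11, adjusted p = 4.44e-07), and it was second to H1foo among the 10. Asf1a, which hands H3-H4 to the HIRA and CAF-1 complexes, had 127, 131, 138 and 153 cRPKM at the 2-cell stage, against 208, 221, 214 and 221 cRPKM at the 1-cell stage. Its 1-cell values were the most even of the 10 relative to their mean. The fall was 1.89-fold (log2 −0.92, SE 0.11, adjusted p = 3.19e-05). Nasp had no overlapping gene in GENCODE but 1 pseudogene named after it, and Asf1a overlaps Mcm9 on the opposite strand, which makes both counts less certain.

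The CAF-1 subunits moved in opposite directions. Chaf1a, the large subunit, had 33.6, 33.9, 40.1 and 34.1 cRPKM at the 2-cell stage, against 65.4, 49.6, 57.2 and 68.6 cRPKM at the 1-cell stage, in the order Snrpb with Snrpd2, Snrpb, Snrpd2 and mCherry. It fell 2.02-fold (log2 −1.02, SE 0.12, adjusted p = 2.73e-05). Chaf1b, the middle subunit, had 11.4, 10.9, 16.7 and 10.7 cRPKM at the 2-cell stage, against 5.27, 4.54, 4.78 and 6.52 cRPKM at the 1-cell stage. It rose 1.95-fold (log2 0.97, SE 0.17, adjusted p = 0.000548), and neither gene's stages overlapped. In GENCODE Chaf1a overlaps Ubxn6 on the opposite strand and Chaf1b overlaps Gm49617 on its own strand, so both counts may hold reads of another gene. Chaf1a accounted for 70.6% to 76.1% of the summed level of the 2 subunits at the 2-cell stage and 91.3% to 92.5% at the 1-cell stage. Rbbp4, the gene of the small CAF-1 subunit, fell 3.50-fold to 19.5 ± 2.20 cRPKM, against 57.1 ± 5.77 cRPKM at the 1-cell stage (SD, n = 4, adjusted p = 9.21e-07). Its paralogue Rbbp7, rank 14 at the 1-cell stage, fell 6.31-fold to 369 ± 32.5 cRPKM, against 1948 ± 186 cRPKM (adjusted p = 9.29e-08).

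Hira, the scaffold of the complex that places H3.3 on the male pronucleus, was low throughout. It had 2.17, 1.86, 1.41 and 1.34 cRPKM at the 2-cell stage, against 3.25, 2.01, 2.26 and 2.51 cRPKM at the 1-cell stage. The ranges overlapped between the 2-cell library given both Sm mRNAs and the 1-cell library given Snrpb, although each injection was lower at the 2-cell stage. In GENCODE 3 other genes overlap Hira, so its low count is uncertain. The fall was 1.78-fold (log2 −0.83, SE 0.17, adjusted p = 0.00152). Of the partners of HIRA, Ubn1 fell 2.25-fold (12.9 ± 1.09 against 24.3 ± 1.48 cRPKM, adjusted p = 8.47e-06), Cabin1 rose 1.83-fold (16.8 ± 5.00 against 8.11 ± 3.57 cRPKM, adjusted p = 0.0225, in 3 of 4 injections), and Ubn2 had 11.7 ± 1.03 and 9.72 ± 0.826 cRPKM (adjusted p = 0.982).

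**Figure D2:**
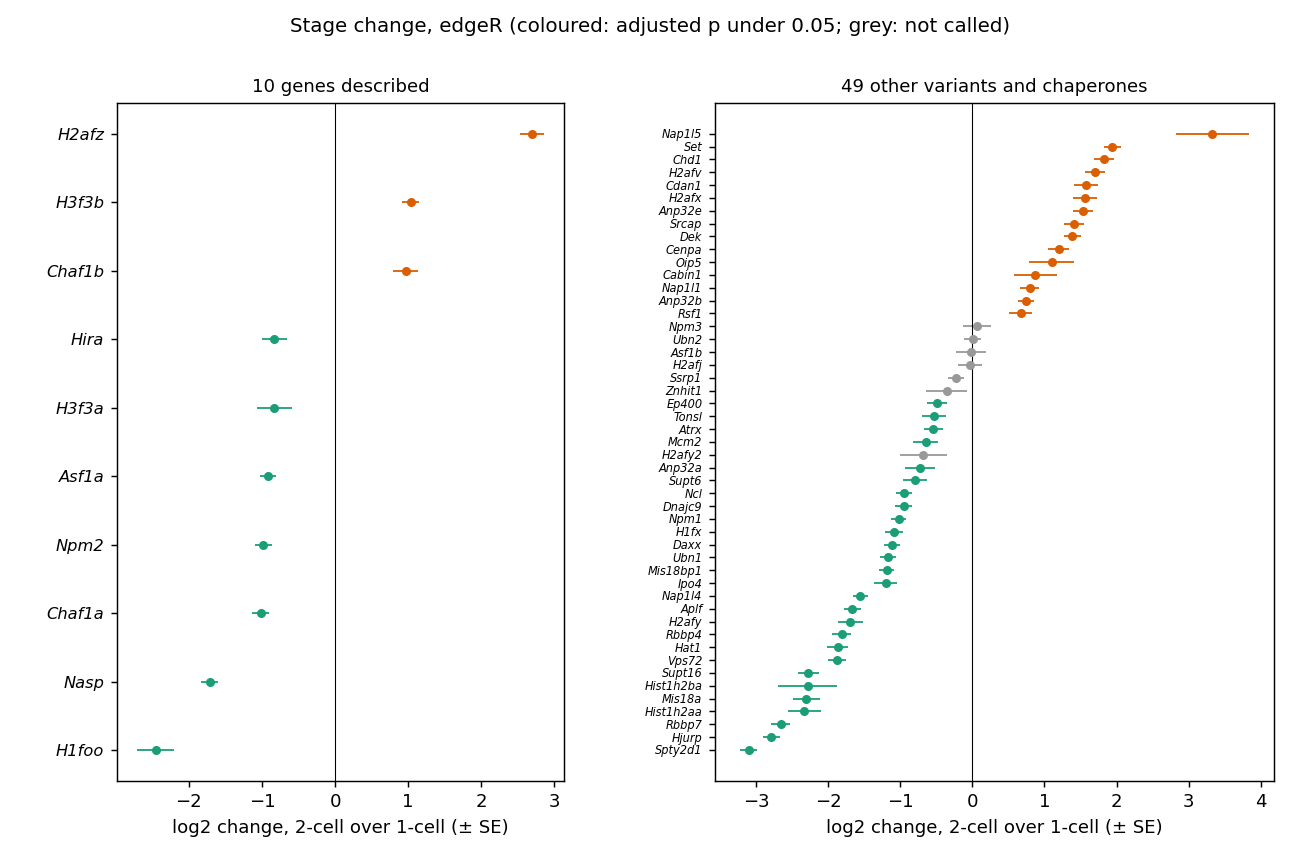
Fitted log2 change of the 2-cell over the 1-cell stage with its standard error, for the 10 genes (left panel) and 49 other histone variant and chaperone genes (right panel). H2afz, H3f3b and Chaf1b lie above 0 and the other 7 members below it, and in the wider list 15 genes are coloured as higher, 27 as lower and 7 are grey.

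Paralogue pairs shifted in their makeup between the stages. Asf1b, the second ASF1 gene, had 189 ± 32.0 cRPKM at the 2-cell stage and 162 ± 40.8 cRPKM at the 1-cell stage (SD, n = 4, adjusted p = 0.942), and the share of Asf1a in the pair was 39.4% to 44.6% at the 2-cell stage and 50.7% to 65.3% at the 1-cell stage. H2afv, the second H2A.Z gene, rose 3.24-fold (29.6 ± 4.87 against 7.56 ± 0.298 cRPKM, adjusted p = 2.15e-06). H2afz made up 88.1% to 89.1% of the pair at the 2-cell stage and 75.1% to 81.4% at the 1-cell stage. None of these share ranges overlapped between stages, and the shares were not tested.

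**Figure D3:**
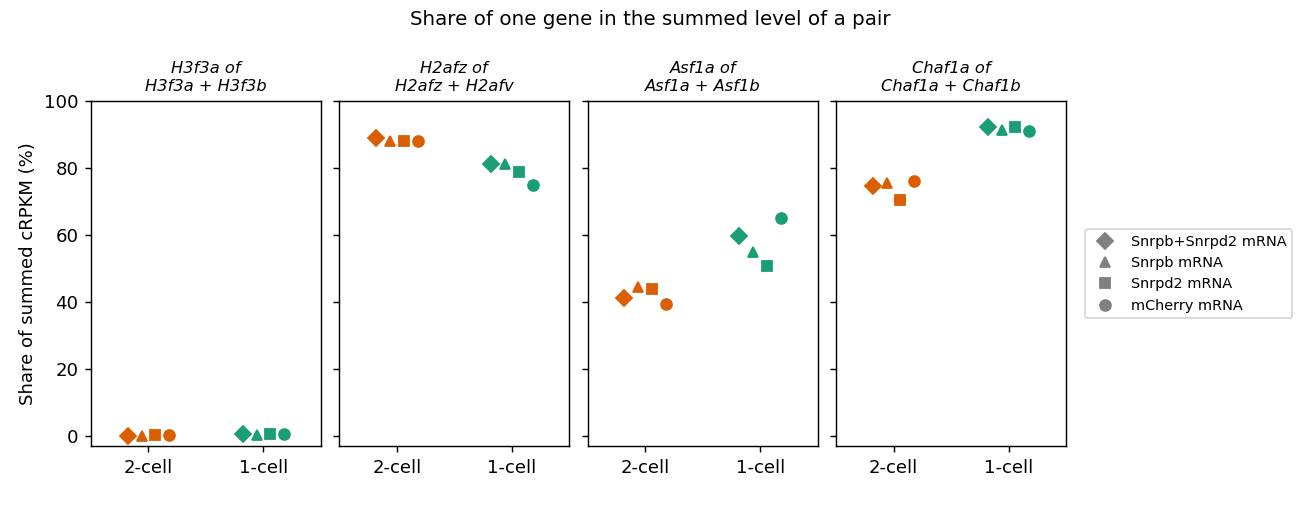
Share of the first gene in the summed cRPKM of a pair, in percent, for each library, with 2-cell libraries left of 1-cell libraries. Chaf1a and Asf1a take a smaller share at the 2-cell stage, H2afz a larger one, and H3f3a stays under 1% of the H3.3 pair throughout.

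The wider list held 50 other histone variants and chaperones, of which 49 had values. Of these, 15 were higher, 27 lower and 7 did not pass at the 2-cell stage, and the median log2 change was −0.64 (all genes 0.15). The 4 largest rises were those of Nap1l5 of the NAP1 family (log2 3.32, at 0.838 ± 0.136 against 0.07 ± 0.0346 cRPKM, and 2 to 10 reads in 1-cell libraries), Set, a NAP1-family chaperone (3.84-fold, 82.3 ± 5.48 against 17.9 ± 2.23 cRPKM), the remodeller gene Chd1 (3.54-fold, 6.97 ± 0.650 against 1.67 ± 0.371 cRPKM) and H2afv. The largest falls were those of Spty2d1, an H3-H4 chaperone in human cells (8.55-fold, 5.38 ± 0.518 against 38.4 ± 1.37 cRPKM), Hjurp, the chaperone of centromeric CENP-A (6.89-fold, 30.7 ± 2.31 against 178 ± 25.8 cRPKM), Rbbp7, and Hist1h2aa, an H2A variant of germ cells (5.03-fold, 4.53 ± 0.398 against 19.2 ± 3.56 cRPKM). Adjusted p-values of these 8 genes lay between 2.32e-08 and 0.000196 (edgeR).

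Other partners of the members were also measured. Daxx, another H3.3 chaperone, fell 2.16-fold (11.2 ± 0.856 against 20.1 ± 0.344 cRPKM, adjusted p = 1.05e-05), and its partner Atrx fell 1.46-fold (adjusted p = 0.00436). Npm1, the widely expressed relative of Npm2, fell 2.03-fold (83.3 ± 6.89 against 141 ± 6.40 cRPKM, adjusted p = 1.12e-05), while Npm3 had 6.39 ± 0.741 and 5.12 ± 0.887 cRPKM (adjusted p = 0.764). Of the genes listed for loading or removing H2A.Z, the loading remodeller Srcap rose 2.66-fold (adjusted p = 1.14e-05) and the removal chaperone Anp32e 2.89-fold (adjusted p = 4.26e-06), whereas Vps72 fell 3.68-fold (adjusted p = 4.8e-07) and Ep400 1.41-fold (adjusted p = 0.00993). Znhit1 did not pass (adjusted p = 0.289). Srcap, Anp32e, Vps72, Ep400 and Znhit1 were named after their values were seen, as the whole H2A.Z group of the list.

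Profiles over the 8 libraries were compared by the root mean square (RMS) difference of log2 levels after each gene's own mean was removed, over 11262 genes with a mean of at least 1 cRPKM. Among the members, Chaf1a and Npm2 were the closest pair (0.109), Chaf1b was closest to H3f3b (0.248), and H1foo and H2afz were the farthest apart (2.60). Chaf1a and Chaf1b differed by 0.992, and H3f3a and H3f3b by 0.964. In the whole table the 2 genes most like H1foo were Ccdc117 (0.238) and Ppp1r3d (0.255), those most like H2afz were Chchd10 (0.114) and Chit1 (0.118), and those most like Asf1a were Zfand5 (0.032) and Umad1 (0.042). For Npm2 they were Miox (0.042) and Gcdh (0.059). For the other 9 members the nearest gene was at 0.115 or less.

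The second comparison asked whether Sm mRNA changed the members, with the 3 Sm mRNA libraries of a stage set against the mCherry library. At the 2-cell stage 0 of the 10 genes passed, with fitted log2 changes between −0.42 (H3f3a) and 0.40 (Hira) and every adjusted p at 1.0. At the 1-cell stage 0 passed too, with log2 changes between −0.40 (Npm2) and 1.14 (H1foo) and adjusted p of at least 0.171. The contrast of the 2 effects called 0 members, with adjusted p of at least 0.422. The edgeR background was 0.0% of 16867 genes in each of these 3 tests, so the tests separated no gene at all. At an unadjusted level of 0.05 they gave 637, 2618 and 1648 genes (2-cell, 1-cell and the contrast), among them 0, 3 and 1 of the members. DESeq2 called 0 genes at the 2-cell stage and 8 higher and 23 lower for the contrast, and limma on log2(cRPKM + 0.1) called 2 higher at the 2-cell stage, 1 lower at the 1-cell stage and 1 higher for the contrast, none of them a member. In simulated data of this design, 23% of 100 genes changed 2-fold at the 1-cell stage were recovered and 100% of those changed 4-fold. The simulation gave every gene the same spread and all 3 Sm mRNA libraries the same change, which real libraries need not have. In the real 1-cell libraries Tnfaip6 (5.67-fold) and Ptgs2 (5.68-fold) were not called. Changes of about 2-fold or less could thus mostly not be seen, and larger ones could be missed too.

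H1foo at the 1-cell stage was the largest of these differences among the 10 members. It stood at 485, 842 and 844 cRPKM with Snrpb and Snrpd2, Snrpb, and Snrpd2 mRNA, against 338 cRPKM with mCherry, and all 3 Sm mRNA libraries were above the control. The fitted log2 change was 1.14 (SE 0.32, adjusted p = 0.171). With DESeq2 on the same counts the change of 1.14 passed (SE 0.30, adjusted p = 0.00893), as did 420 genes upward and 114 downward. As single libraries, the ratio to mCherry was 1.39 (95% counting interval 1.37 to 1.42) with both Sm mRNAs, 2.65 (2.61 to 2.69) with Snrpb and 2.57 (2.53 to 2.61) with Snrpd2. At the 2-cell stage the ratios of H1foo were 0.965 (0.93 to 1.0), 0.772 (0.742 to 0.802) and 1.11 (1.08 to 1.15), on either side of no change. Summed cumulus and granulosa markers at the 1-cell stage were at 88.02, 76.5 and 77.0 cRPKM with Snrpb and Snrpd2, Snrpb, and Snrpd2 mRNA, against 55.8 cRPKM with mCherry. Most of each sum came from Bmpr1b (42.7, 37.9 and 44.1 against 32.9 cRPKM with mCherry) and Cyp19a1 (18.1, 17.7 and 19.7 against 15.5 cRPKM). The summed markers were above mCherry in all 3 and highest with both Sm mRNAs. Of the 19 tested, 0 passed, and their median log2 change was 1.12. The 10 markers of the oocyte and early embryo had a median log2 change of −0.16, from −0.65 (Ooep) to 0.61 (Gdf9), and 0 passed. The part of either marker list in the H1foo difference was not tested.

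H2afz and Npm2 were the other members with an unadjusted value under that level at the 1-cell stage. H2afz had 33.9, 32.9 and 26.9 cRPKM with Snrpb and Snrpd2, Snrpb, and Snrpd2 mRNA, against 23.2 cRPKM with mCherry (log2 0.46, SE 0.20, adjusted p = 0.29). Npm2 had 242, 220.1 and 218 cRPKM against 307 cRPKM with mCherry (log2 −0.40, SE 0.14, adjusted p = 0.233). Neither difference passed.

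Each Sm mRNA library was also set against the mCherry library of its stage on its own, and genes past 2-fold with the whole counting interval beyond no change were counted. At the 2-cell stage 0 members were past it with both Sm mRNAs, Snrpb or Snrpd2, where 3.52%, 4.36% and 4.34% of all genes with at least 50 reads were. At the 1-cell stage 0 members were past it with both Sm mRNAs (4.19% of all genes), 1 with Snrpb (4.62%) and 1 with Snrpd2 (5.18%), and that member was H1foo each time. These 6 ratios share their control within a stage and describe single pooled libraries without a replicate check. Over all 10 genes and the 3 injections, the other ratios lay between 0.56 (H3f3a with Snrpb) and 1.59 (Hira with both) at the 2-cell stage and between 0.665 (H3f3a with Snrpb) and 1.51 (H2afz with Snrpb) at the 1-cell stage.

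Some single libraries differed from the rest of their stage in more than 1 member. In the 2-cell library given Snrpd2, Chaf1b was 1.48 times the mCherry level (95% interval 1.36 to 1.61) and H2afz 1.19 times (1.16 to 1.22). Chaf1a was at 1.12 times (1.07 to 1.16), Nasp at 1.19 times (1.12 to 1.26) and H1foo at 1.11 times (1.08 to 1.15) there. Asf1a and H3f3b were below mCherry in every 2-cell library given Sm mRNA, at 0.816 to 0.856 times and 0.869 to 0.885 times. The Nasp ratio at the 1-cell stage was 1.32 (1.28 to 1.35) with Snrpd2 and 0.971 (0.941 to 1.0) with Snrpb, where the second interval reaches no change. In the 1-cell Snrpb library, Nasp was at 0.738 times (0.717 to 0.76) and H1foo at 1.03 times (1.02 to 1.04) its level in the 1-cell Snrpd2 library.

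**Figure D4:**
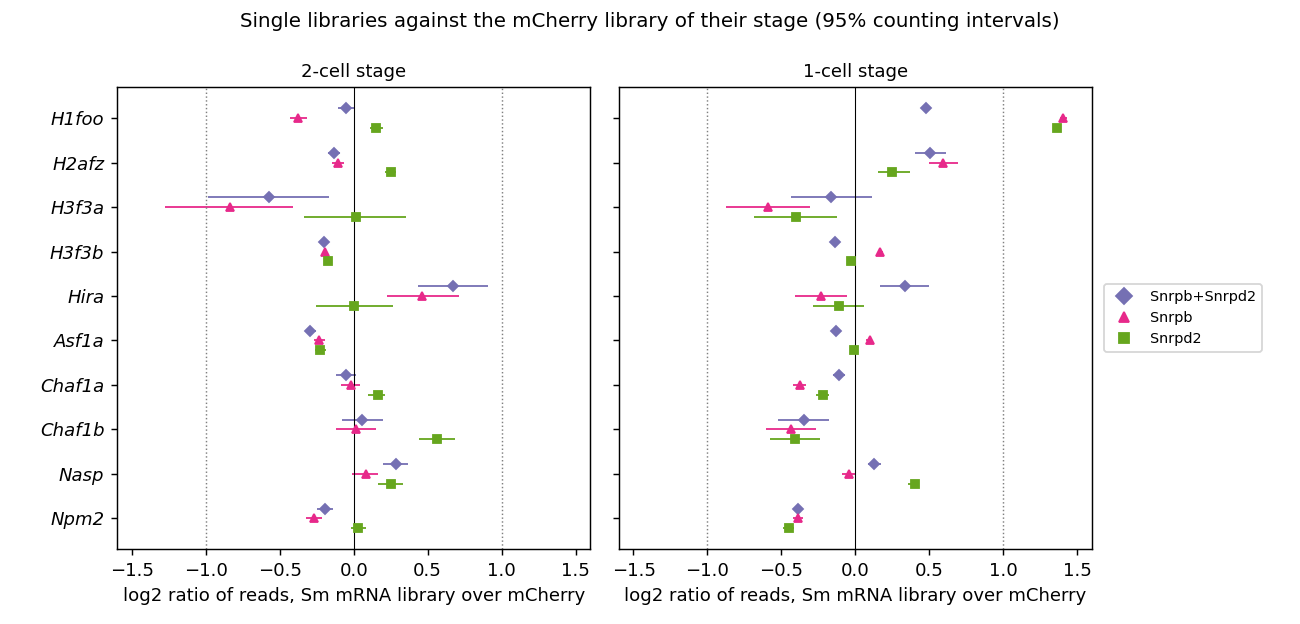
Log2 ratio of TMM-scaled reads of each Sm mRNA library over the mCherry library of its stage, with 95% counting intervals, for the 2-cell stage (left panel) and the 1-cell stage (right panel), and dotted lines at 2-fold. H1foo with Snrpb and with Snrpd2 at the 1-cell stage lies beyond 2-fold, and the other points lie within it.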

How the data were processed

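Gene levels were measured by sequencing of polyadenylated RNA in 8 libraries, 4 injections at 2 stages. The deposited tables had no header. Their counts are whole numbers of reads per gene, and their second value is cRPKM, an RPKM value computed by the authors, and in 2662 genes with many reads it matched the count scaled by 1 length for each gene and by the library total, within 0.206%. Per the submitters' processing notes reads were placed on mm9. Which aligner and annotation were used is not given in the sources used here. Of 22667 identifiers, 21553 had values. Symbols came from GENCODE vM21 by Ensembl identifier and promoter sequence from RefSeq (GRCm38.p6).

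Counts were tested with edgeR 4.0.16 in R 4.3.3, by quasi-likelihood after filterByExpr and TMM scaling, with Benjamini-Hochberg adjustment over all genes tested. The stage model had terms for injection and stage (16264 genes, 3 residual degrees of freedom). The injection model had 4 groups, stage by Sm mRNA or mCherry (16867 genes, 4 residual degrees of freedom), and the lone mCherry library was assumed to vary like the Sm mRNA libraries. P-values measure the spread between differently injected pools. Standard errors were taken from the log2 change and the F statistic. The fits were tested on simulated data. The threshold for a call was an adjusted p of 0.05. Single libraries were compared as TMM-scaled ratios with exact conditional binomial intervals (95%), which cover counting error only, since PCR reads are not independent molecules. A count of 0 allows up to 3 reads, and no member was at 0.

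The members and lists were chosen with earlier results of these data known. All 10 members are named, with their partners in complexes whatever these did, the 4 largest rises and falls of the wider list that moved alike in all injections, and the 2 genes nearest each member in profile, of which those of 4 members are printed. Alternatives were other scaling, no filter, DESeq2 1.42.0, limma 3.58.1 on log2(cRPKM + 0.1) or log2(cRPKM + 1), the injected genes left out, no injection term, and each library left out.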

Additional observations from a re-analysis of the deposited data

Results flagged for a closer look

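Among 20 sets of 4 libraries (10 genes at 2 stages), a single library lay far from the other 3 in 2 sets. For independent, normally spread values the cut used picks out about 1 set in 20. The share of sets picked out over all genes was not computed. Chaf1a stood at 40.13 cRPKM in the 2-cell library given Snrpd2, where the other 3 libraries of the stage had 33.6 to 34.1 cRPKM. Chaf1b stood at 16.69 cRPKM in the same library, where the others had 10.7 to 11.4 cRPKM. Both lie in 1 library, which has no replicate. That library also stood apart from the others of its stage in the markers Hsd3b1 and Cyp11a1. The spread that edgeR fitted over all genes in the injection model (common dispersion) was 0.0271 without it, against 0.0362 with all libraries.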

How the results depend on the processing

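Over 17 alternatives the stage comparison kept its direction for all 10 members, and 167 of 170 values stayed on the same side of the threshold. The 3 that did not were those of H3f3a given in the report. The stage changes ranged from −2.79 to −2.16 for H1foo, from 2.53 to 2.96 for H2afz and from −1.79 to −1.42 for Nasp. The median change of all genes was 0.15 with TMM, 0.19 with RLE size factors and 0.41 with library totals, and all members kept their sign relative to these shifts. For Sm mRNA at the 1-cell stage, DESeq2 called 1 member (H1foo) where edgeR called 0, and H1foo ranged from 0.99 to 1.40 over the alternatives with adjusted p between 0.00893 and 0.282. No other alternative called a member for Sm mRNA at either stage. With 1.5-fold in place of 2-fold, Hira was past the fold with both Sm mRNAs and H3f3a with Snrpb at the 2-cell stage. At the 1-cell stage H1foo, H2afz and H3f3a were past it with Snrpb, and H1foo with Snrpd2. With Snrpb there, H2afz (1.51) and H3f3a (0.665) lay close to the cut. The share of all genes past 1.5-fold was not computed, so these counts have no background to be set against. Leaving out a mCherry library leaves no Sm mRNA comparison at that stage. The labels number no replicates, and injection served as the term that links the stages. Depth limits H3f3a and Hira most, at 71 to 256 and 237 to 671 reads per library.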
